A study of Mus musculus with 8 samples.

Results

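The genes described here are 39 genes of mitosis and of the G2/M transition, the step at which a cell that has copied its DNA enters division. They were taken by symbol from a list of gene names with no measured value in the rule, though earlier results of these data were known. All 39 were found among 52778 features of the deposited expression table. Ventricles of the embryonic heart were dissected at E11.5 from mice, for 4 control libraries and 4 libraries from embryos with a frameshift allele of Atf4. Controls are labelled C57BL/6 WT. Mutants carry on both copies of Atf4 an exon 3 that lacks 7 bases, cut out with CRISPR/Cas9, which shifts the reading frame and leaves the polyadenylation signal in place. They are called a global knockout, so the allele is present in every cell type of the embryo and not in the heart alone. The genotype field of the mutant samples also reads C57BL/6 WT, and the groups were taken from the titles. Neither group received a drug. The libraries are called biological replicates, and the labels do not say whether each holds 1 heart or several, or how the embryos fall into litters.

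Expression is given as TPM, a transcript level scaled for length and library size that can be compared between genes. The depth of the libraries is unknown, since TPM does not hold read numbers. Listed features summed to between 923473 and 949762 TPM per library. Atf4 itself was measured at 105, 121, 115 and 105 TPM among controls and at 166, 164, 185 and 148 TPM among mutants, and the groups did not overlap. Its log2 fold change was 0.57 (limma, adjusted p of 0.0430). The fold change stayed between 0.51 and 0.62 under every alternative, while the call was lost under 5 of them with all libraries kept and with any library but mutant replicate 4 left out. A transcript level does not check the loss of the protein. Cardiomyocyte markers summed to between 35823 and 39040 TPM per library. All 5 hepatocyte markers stayed below 1 TPM in every library. A label text describes extraction from cortical neurons. Of 6 neuronal markers, Snap25, Rbfox3 and Syt1 stayed below 1 TPM in every library, Elavl4 and Stmn2 ran from 0.895 to 1.86 TPM and from 1.06 to 1.76 TPM, and Tubb3 from 7.06 to 11.8 TPM.

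Cyclin-dependent kinase 1, bound to cyclin A or cyclin B, drives entry into mitosis. Aurora and Polo kinases then build the spindle, the checkpoint holds the chromosomes until every kinetochore is attached, and the anaphase-promoting complex destroys cyclin B and securin so that the chromosomes part. Transcripts of these genes build up in G2 and mitosis and are low in resting cells, so their level in a tissue follows the share of dividing cells. The embryonic heart grows by division of its muscle cells and of its endocardial, epicardial and mesenchymal cells. In such whole-tissue RNA, a change in the share of dividing cells and a change in the RNA per dividing cell cannot be told apart.

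Many genes of this kind share a promoter layout: boxes with the letters CCAAT, which the factor NF-Y binds, and the cell cycle genes homology region (CHR), TTTGAA, which the MuvB complexes bind. Both were searched on either strand in RefSeq promoter windows of 300 bases on GRCm38.p6, from 250 bases before to 50 after the annotated start. Of the 39 genes, 33 had a window, and Ccna2, Cdc25c, Tpx2, Aurkb, Cdca2 and Kif20a had none in the table. The 3 windows below belong to the regulators of cyclin-dependent kinase 1 that hold both motifs, and they show the layout that most of the genes share. Capitals mark CCAAT or its reverse complement ATTGG and TTTGAA. The Ccnb2 window is chr9:70421505-70421804 on the minus strand, the Cdca3 window chr6:124829926-124830225 on the plus strand and the Cdk1 window chr10:69352863-69353162 on the minus strand.
Ccnb2: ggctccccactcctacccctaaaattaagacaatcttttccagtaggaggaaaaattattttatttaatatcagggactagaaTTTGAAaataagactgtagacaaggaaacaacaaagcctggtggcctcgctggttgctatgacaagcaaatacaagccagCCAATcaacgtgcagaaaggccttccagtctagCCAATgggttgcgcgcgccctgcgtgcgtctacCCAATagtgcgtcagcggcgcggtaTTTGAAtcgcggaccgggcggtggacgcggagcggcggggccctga
Cdca3: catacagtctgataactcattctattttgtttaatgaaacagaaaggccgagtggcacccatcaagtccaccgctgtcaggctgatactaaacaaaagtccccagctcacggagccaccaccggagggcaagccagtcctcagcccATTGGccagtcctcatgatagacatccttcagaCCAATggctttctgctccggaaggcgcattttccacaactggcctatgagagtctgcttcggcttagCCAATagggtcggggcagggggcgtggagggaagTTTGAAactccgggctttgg
Cdk1: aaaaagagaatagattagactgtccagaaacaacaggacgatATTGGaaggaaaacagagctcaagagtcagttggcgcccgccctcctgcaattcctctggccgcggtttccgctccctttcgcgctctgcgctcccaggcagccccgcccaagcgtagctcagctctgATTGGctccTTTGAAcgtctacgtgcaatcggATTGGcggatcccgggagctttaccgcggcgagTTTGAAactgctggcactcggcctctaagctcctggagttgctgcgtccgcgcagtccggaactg

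Ccnb2 had 3 CCAAT boxes, at bases -87, -54 and -21 from the start, with TTTGAA at base 5 and a second copy at base -167. In Cdk1 the TTTGAA nearest the start lay at base -15, after boxes at -208, -80 and -48. CCAAT was found in 27 of 33 genes (81.8%), against 37.4% of all 32851 windows and 43.0% of the 10705 tested genes with a window. TTTGAA was found in 25 of 33 (75.8%), against 17.9% of all windows and 14.4% of tested genes. Both stood together in 22 of 33 (66.7%), against 6.95% of all windows and 6.07% of tested genes. Among 82 other mitosis genes with a window both were found in 29.3%, and among 30 genes of the G1/S transition and DNA replication in 13.3%. Counted singly, CCAAT was found in 59.8% of these other mitosis genes and in 63.3% of the G1/S genes. TTTGAA was found in 41.5% and 16.7%. At least 2 CCAAT boxes were present in 18 genes. Of the 25 genes with TTTGAA, 22 had it within 50 bases of the start. Ccnb1, Bub1, Cdc25b, Cenpe and Nek2 had CCAAT alone, Kif20b, Kif2c and Ndc80 had TTTGAA alone, and Birc5, Nuf2 and Nusap1 had neither in this window.

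**Figure D1:**
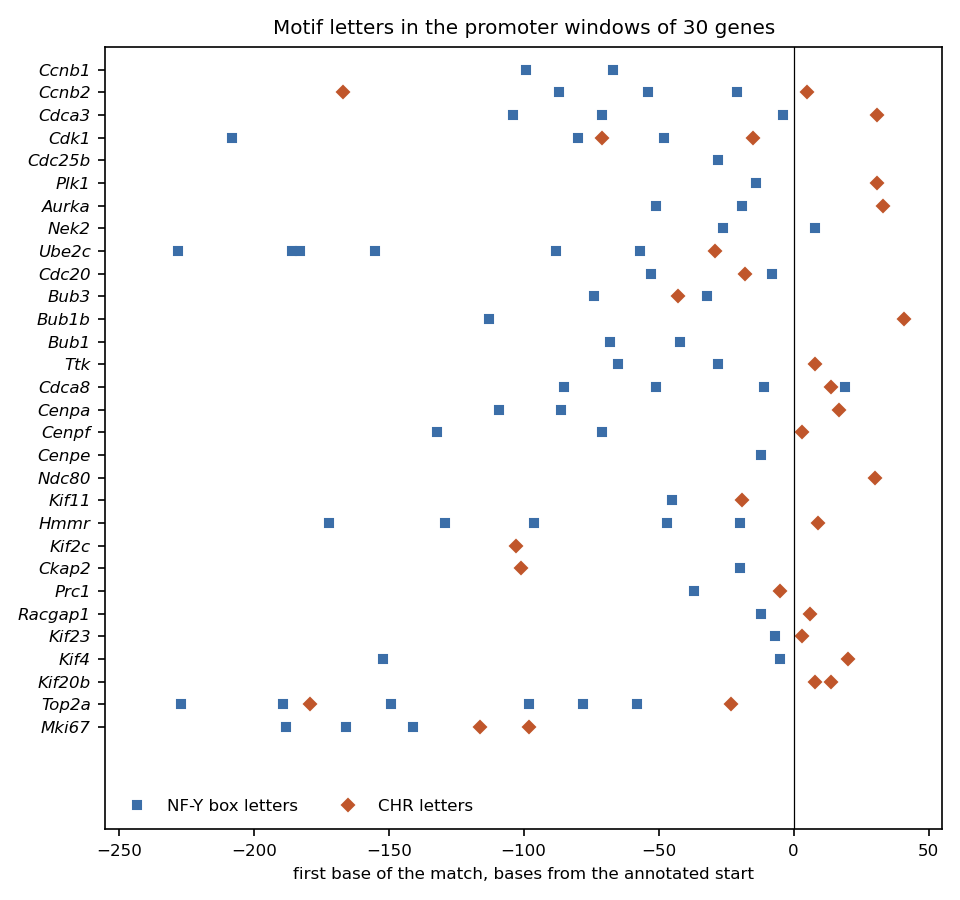
Position of the NF-Y box letters (squares) and CHR letters (diamonds) in the promoter windows of the 30 genes with at least 1 match, in bases from the annotated start (x axis), 1 gene per line. The NF-Y box letters lie before the start in 60 of 62 matches, and the CHR letters cluster around it, within 50 bases in 23 of 30 matches. The window holds 250 bases before the start and 50 after it, so most of its positions lie before the start.

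A variant of the CHR, TTCGAA, was present in 4 of 33 genes and in 1.56% of all windows. It was also present in 8 of the 82 other mitosis genes and in 2 of the 30 G1/S genes. The E2F-type letters TTTCCCGC and TTTGGCGC were found in 0 of the 33 windowed genes each, against 1.07% and 0.514% of all windows. They were held by 7 and 6 of the 30 G1/S genes and by 7 and 6 of the 82 other mitosis genes. TTGCATCA, the letters of a C/EBP-ATF response element of the kind ATF4 binds, was also found in 0 of 33 and in 0.895% of all windows. With shares this low over all windows, 0 of 33 does not set the genes apart from other genes. The absence of these letters covers this window alone.

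All 39 genes were expressed in every library and passed the filter of at least 1 TPM in at least 4 libraries. Values ran from 16.7 TPM, for Cdc25c in control replicate 3, to 255 TPM, for Ube2c in control replicate 4. The median gene stood at 62.7 TPM, against 15.8 TPM for all tested genes. Ube2c, the ubiquitin-conjugating enzyme of the anaphase-promoting complex, was the most abundant and lay above 96.7% of tested genes. Top2a, the topoisomerase that untangles chromosomes, came next. Ccna2, Ccnb1, Mki67, Birc5 and Cenpa were the others above 100 TPM, which made 7 genes. Every library of Ube2c lay above every library of Top2a, and those above every library of Ccna2, while from Ccna2 down to Cenpa the ranges of neighbouring genes overlapped. At the low end, Cdca2, Cdc25b, Ttk, Kif20b and Cdc25c were below 25 TPM. The highest gene mean was 12.8 times the lowest, and the 5 most abundant genes held 30.1% of the summed TPM.

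**Figure D2:**
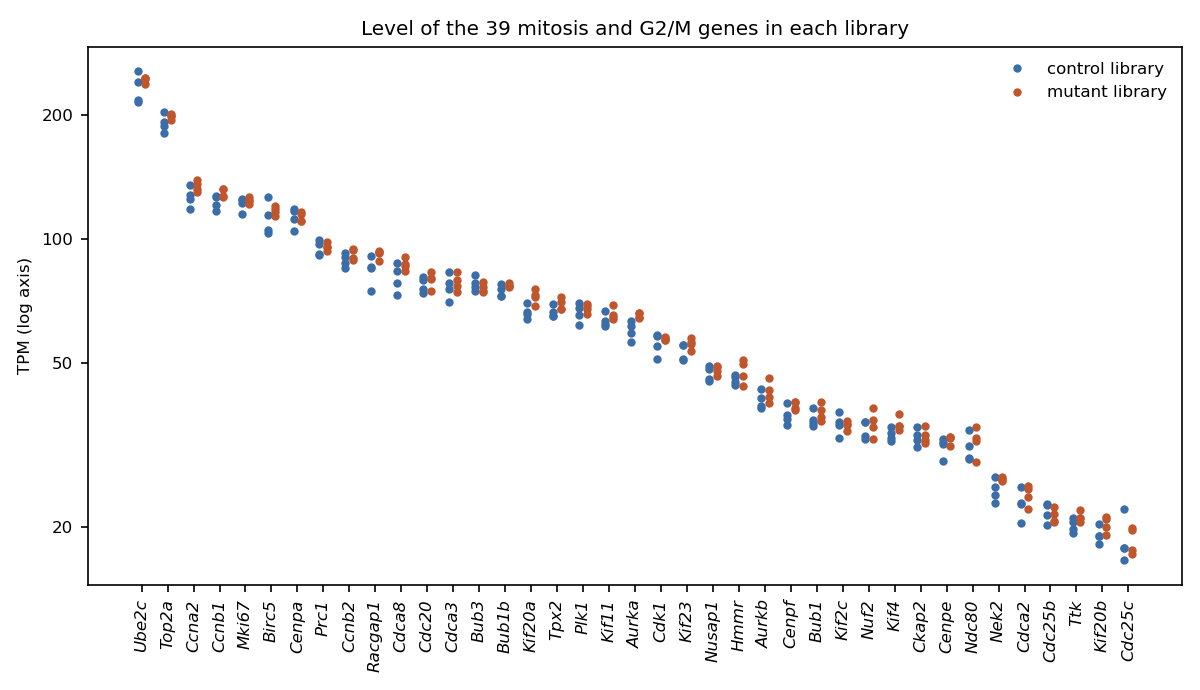
TPM (log axis) of each of the 39 genes in the 4 control (blue) and 4 mutant (orange) libraries, genes ordered by their mean. The order runs from Ube2c and Top2a down to Cdc25c, and blue and orange points overlap in 38 of the 39 genes.

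The comparison between genotypes asked whether mitotic transcripts in the embryonic ventricle differ between controls and embryos with the Atf4 frameshift allele. No mitotic gene passed the test: 0 of 39 reached an adjusted p of 0.05 in limma, while 6 of 15545 tested genes did (0.0386%), with 0.00643% higher and 0.0322% lower. With a share this low over all tested genes, 0 of 39 does not set the mitotic genes apart from other genes. The unadjusted p was below 0.05 in 3 higher genes, Aurka, Kif20a and Racgap1, and in 0 lower genes, against 2.65% higher and 3.45% lower over all tested genes. Nearly the whole list had small positive values. The log2 fold change, mutant minus control on the log2(TPM + 1) scale, was above 0 in 36 of 39 genes (92.3%) against 48.2% of all tested genes. Among the 6552 tested genes in the same range of levels the share was 54.9%. The median was 0.051, against -0.0033 over all tested genes, and the quartiles of the members were 0.033 and 0.075. In TPM, the change of a gene's mean ran from -2.37% in Bub3 to 9.07% in Racgap1. The 95% interval of the difference included 0 in 36 of 39 genes, and its upper limit reached 0.25 in no gene but Racgap1.

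**Figure D3:**
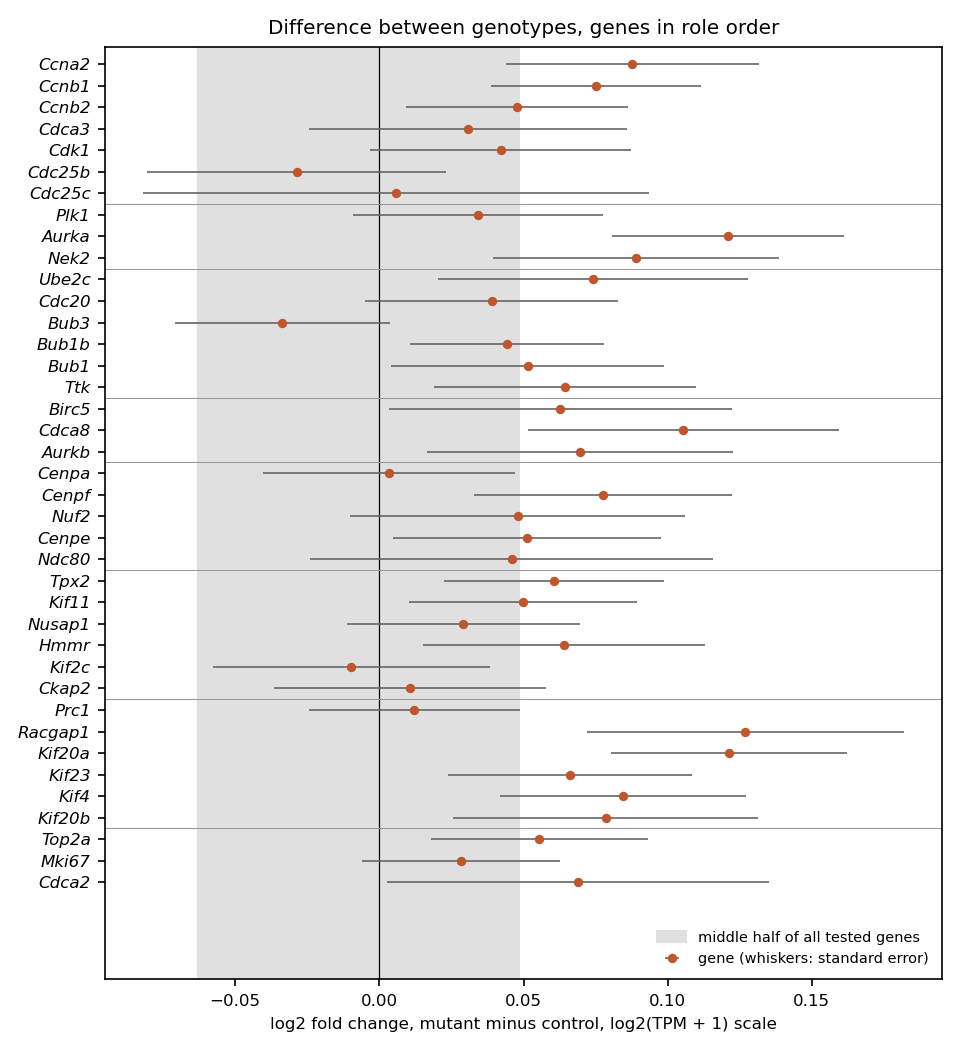
Log2 fold change, mutant minus control, of each gene with its standard error (x axis), genes in order of their roles, and the quartiles of all tested genes as a grey band. The points lie to the right of 0 in 36 of 39 genes, and the 3 to the left are Cdc25b, Bub3 and Kif2c.

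The controls were spread more widely than the mutants. Summed over the 39 genes, the controls held 2775, 2570, 2513 and 2710 TPM in replicates 1 to 4, and the mutants 2722, 2761, 2748 and 2750 TPM. Control replicates 2 and 3 lay well below every mutant library and control replicate 4 just below, while control replicate 1 lay above all of them. The means were 2642 ± 121 TPM for controls and 2745 ± 16.7 TPM for mutants (SD, n = 4 each), a difference of 103 TPM or 3.90%. This is less than the SD of the controls, but that SD describes single libraries and not the error of the difference, which was not tested. Without control replicate 3 the difference was 60.2 TPM, the median log2 fold change 0.032, and 32 of 39 genes were higher in the mutants. Without control replicate 1 the median was 0.076, with 37 of 39 higher. Mean log2(TPM + 1) over the 39 genes was 5.82 ± 0.0612 for controls against 5.87 ± 0.0144 for mutants (SD over 4 libraries each).

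**Figure D4:**
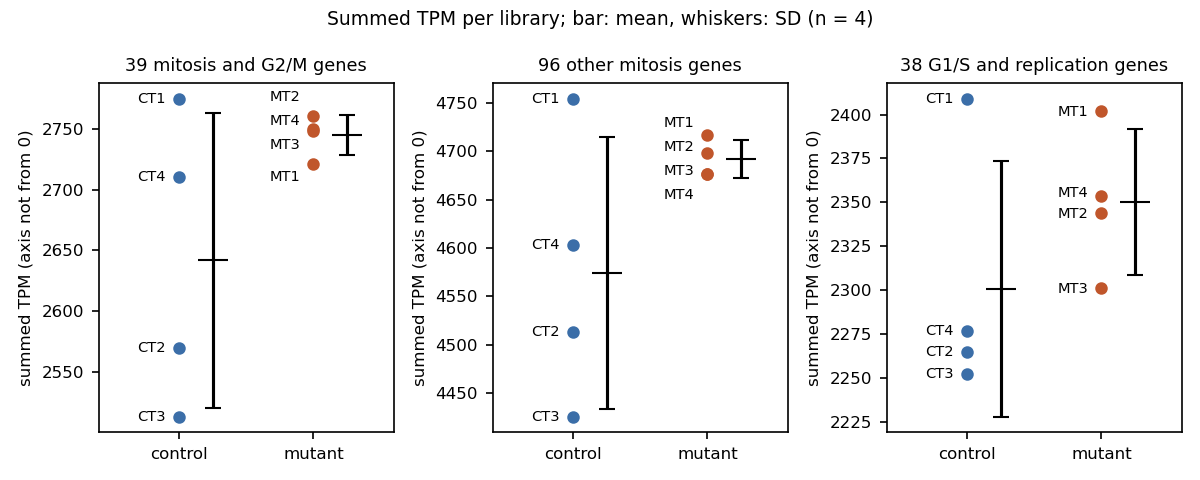
Summed TPM per library (y axis, not from 0) of the 39 genes, of 96 other mitosis genes and of 38 genes of G1/S and DNA replication, in control (CT) and mutant (MT) libraries, with the mean and SD of 4. In the first panel the 4 mutant libraries sit between 2722 and 2761 TPM and the controls between 2513 and 2775 TPM.

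Single genes followed the same order of libraries. Control replicate 3 held the lowest of the 8 values in 24 of 39 genes and control replicate 2 in 9, while over all tested genes these libraries held the lowest value in 19.1% and 11.1%. Neither held the highest value in any of the 39. Control replicate 1 was the highest control in 26 genes and control replicate 4 in the other 13, against 31.5% and 26.6% of all tested genes. Among mutants the highest value was spread over all 4 libraries, with 9, 12, 8 and 10 genes in replicates 1 to 4. Over all tested genes the shares of these replicates were 37.9%, 18.2%, 24.5% and 19.4%. On the log2 scale the SD was larger among controls than among mutants in 29 of 39 genes (74.4%), against 47.7% of all tested genes.

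**Figure D5:**
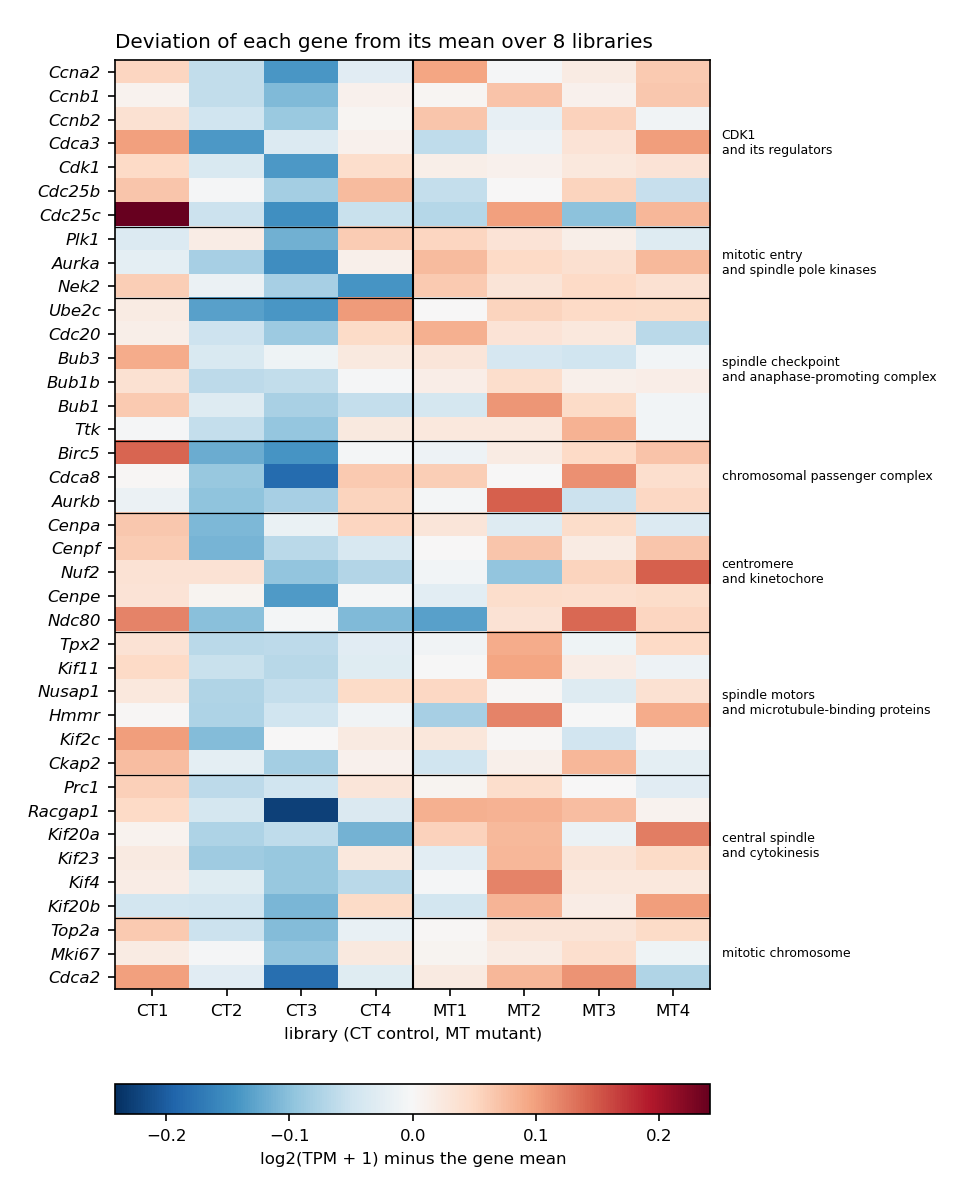
Log2(TPM + 1) of each gene minus its own mean over the 8 libraries (colour), genes grouped by role (rows), control (CT1 to CT4) and mutant (MT1 to MT4) libraries in columns. Control replicate 3 is the lowest of the 8 in 24 of 39 genes, and control replicate 1 is the highest control in 26.

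The mitochondrial share moved with this order among the controls. Mitochondrially encoded genes held 12.9%, 13.99%, 14.98% and 13.6% of the listed TPM in control replicates 1 to 4, so the control with the least mitotic RNA had the largest mitochondrial share. In the mutants the shares were 12.9%, 13.6%, 14.1% and 13.4%, and the order of the controls did not hold. Mutant replicate 1 had the least mitotic RNA of the mutants and also the smallest mitochondrial share. After TPM was rescaled without mitochondrially encoded and haemoglobin genes, 35 of 39 genes were higher in the mutants and the median was 0.047, against 36 and 0.051 before. Erythroid markers summed to between 4533 and 7707 TPM in controls against between 4227 and 5851 TPM in mutants, with 6 of 8 genes lower and none at 0. Of the 6 macrophage markers, 3 were tested and all 3 were lower, and the list summed to 10.1 to 13.4 TPM in the controls and 7.05 to 9.09 TPM in the mutants, with no overlap and no gene at 0 throughout. The part of the mitochondrial share and of the erythroid and macrophage markers in the mitotic values was not tested. Summed levels of cardiomyocyte, endocardial and endothelial, epicardial, cushion mesenchyme and neuronal markers overlapped between the groups, and 0 genes of the marker lists passed the threshold.

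Cyclin-dependent kinase 1 and its regulators are 7 genes. Of these, 6 were higher and 1 lower, with a median log2 fold change of 0.042, and 0 passed. Ccna2, cyclin A2 (chromosome 3, bases 36564865 to 36573038), held 135, 125, 118 and 128 TPM among controls and 139, 130, 132 and 136 TPM among mutants. Mutant replicates 1 and 4 lay above every control, at a log2 fold change of 0.088 (standard error 0.044, limma adjusted p of 0.841) that was 0.056 without control replicate 3. Exosc9, on the opposite strand, overlaps Ccna2 at a mean of 72.3 TPM. Reads in the stretch they share can be told apart only if the counting used strand, which is not stated. The length of that stretch was not measured. Ccnb1, cyclin B1 (chromosome 13, bases 100778739 to 100786486), held 127, 121, 117 and 127 TPM against 127, 132, 127 and 132 TPM. Its lowest mutant value fell within the controls and the other 3 lay above them, with a difference of 0.075 on the log2 scale (standard error 0.036, limma adjusted p of 0.841). Ccnb2, the second mitotic cyclin B, stood at 88.9 ± 3.48 TPM and 92.0 ± 2.80 TPM (SD, n = 4 each).

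Cdk1, the kinase itself (chromosome 10, bases 69335146 to 69352912), held 58.4, 55.02, 51.1 and 58.1 TPM in the controls. Its mutants, at 57.0, 56.9, 57.5 and 57.8 TPM, lay inside the range of the controls with a spread of 0.425 TPM (SD) against 3.39 TPM. The log2 fold change of Cdk1 was 0.042 with all libraries, 0.0026 without control replicate 3, 0.065 without control replicate 1 and 0.063 without control replicate 4. The phosphatases that switch the kinase on had values nearer to 0 than the cyclins. Cdc25b stood at 21.8 ± 1.15 TPM and 21.3 ± 0.833 TPM, and Cdc25c at 18.6 ± 2.40 TPM and 18.6 ± 1.38 TPM (SD, n = 4 each), the latter with a control replicate 1 of 22.1 TPM against at most 17.9 TPM in the other controls. Cdca3, which promotes mitotic entry through destruction of the inhibitor WEE1, had a log2 fold change of 0.031.

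Among the kinases of mitotic entry and the spindle poles, Aurka had the smallest p of the whole list. Aurka, Aurora kinase A, which matures centrosomes and builds the spindle, lies on chromosome 2 from base 172356190 to base 172370886. It held 61.6, 59.2, 56.4 and 63.2 TPM for controls and 66.1, 64.8, 64.4 and 66.2 TPM for mutants. Every mutant lay above every control, which was the case for 1 of 39 genes, against 1.63% of all tested genes with mutants above and 2.05% with mutants below. Its mean was higher by 8.79%, or 0.12 on the log2 scale (standard error 0.040), and missed the threshold (limma, unadjusted p of 0.0141, adjusted p of 0.780). Over all alternatives its adjusted p ran from 0.613 to 0.946. The opposite-strand gene Cstf1 overlaps Aurka, at means of 30.01 TPM for controls and 31.6 TPM for mutants. Nek2, a kinase that separates centrosomes, held 26.5, 25.1, 23.9 and 22.9 TPM against 26.6, 25.9, 26.3 and 26.1 TPM, so its mutants overlapped only the highest control. The difference of 0.089 on the log2 scale was 0.056 without control replicate 4. Plk1, Polo-like kinase 1, held 65.6, 68.0, 61.9 and 70.1 TPM in controls against 69.6, 68.7, 67.8 and 65.7 TPM in mutants, all of them within the range of the controls. For Plk1 the log2 fold change of 0.034 was 0.0013 without control replicate 3 and 0.061 without control replicate 4.

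The spindle checkpoint and the anaphase-promoting complex are represented by 6 genes, 5 of them higher and 1 lower. Ube2c (chromosome 2, bases 164769929 to 164772902) held 241, 217, 215 and 255 TPM among controls and 238, 246, 246 and 245 TPM among mutants. The controls split into a higher and a lower pair, with mutant replicates 2, 3 and 4 between the values of the higher pair and mutant replicate 1 just below it (log2 fold change 0.074, standard error 0.054, limma adjusted p of 0.896). Without control replicate 2, 3 or 4 that value was 0.043, 0.040 or 0.12. Ttk, the kinase that starts the checkpoint, had the smallest p of this group, at 20.7, 19.8, 19.3 and 21.1 TPM against 21.1, 21.1, 22.0 and 20.6 TPM. Its difference of 0.064 did not pass (adjusted p of 0.894). Bub1 and Bub1b, the checkpoint proteins at the kinetochore, had log2 fold changes of 0.051 and 0.044. Cdc20, the activator of the complex that the checkpoint holds back, had 0.039. Bub3, their partner that also serves outside mitosis, was the lowest of all 39 at -0.034, with 77.9 ± 3.02 TPM for controls against 76.1 ± 1.92 TPM for mutants (SD, n = 4 each).

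The list holds 3 genes of the chromosomal passenger complex, which corrects faulty attachments. All 3 were higher, with a median of 0.070, and 0 passed. Incenp, a further gene of the complex counted among the other mitosis genes, was at -0.012 (limma, adjusted p of 0.989). Birc5, survivin (chromosome 11, bases 117849237 to 117855743), held 126, 105, 104 and 114 TPM against 113, 116, 118 and 120 TPM. Control replicate 1 exceeded every mutant while control replicates 2 and 3 lay below them all. The log2 fold change of Birc5 was 0.063, and without control replicate 1, 2 or 3 it was 0.12, 0.033 or 0.026. Cdca8, borealin (chromosome 4, bases 124918465 to 124936917), held 83.7, 78.4, 73.3 and 87.3 TPM against 87.1, 83.6, 90.3 and 86.0 TPM, a difference of 0.11 on the log2 scale (standard error 0.054, limma adjusted p of 0.841) that was 0.061 without control replicate 3. Aurkb, the kinase of the complex, had 0.070. Both survivin and borealin reached their lowest value in control replicate 3.

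Centromere and kinetochore genes, 5 in all, were higher in each case, with a median of 0.048, but Cenpa turned to -0.0087 under quantile normalization and to -0.0017 after rescaling without mitochondrial and haemoglobin genes. Cenpa, the histone H3 variant that marks centromeres (chromosome 5, bases 30666877 to 30674837), had group means of nearly the same size, at 118, 105, 112 and 117 TPM for controls and 115, 110, 116 and 110 TPM for mutants. Its log2 fold change of 0.0035 had a 95% interval from -0.095 to 0.10. Cenpf, a large protein of the outer kinetochore (chromosome 1, bases 189640606 to 189688107), held 40.2, 35.5, 36.7 and 37.4 TPM against 38.5, 40.3, 38.99 and 40.3 TPM. All mutants lay above 3 of the controls (0.078, standard error 0.045, limma adjusted p of 0.858). Cenpe, the kinetochore motor, had 0.051, and Nuf2 and Ndc80, of the complex that grips microtubules, had 0.048 and 0.046. Ndc80 ran from 29.4 to 34.5 TPM among controls and from 28.8 to 35.0 TPM among mutants, so its groups overlapped fully.

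Spindle motors and microtubule-binding proteins, 6 genes, had a median of 0.039, with 5 higher and 1 lower. Tpx2, which activates Aurora A on the spindle and was both the most abundant and the one with the smallest p (chromosome 2, bases 152847964 to 152895321), held 69.8, 65.1, 65.1 and 66.7 TPM against 67.7, 72.5, 67.6 and 70.4 TPM. Mutant replicates 2 and 4 lay above every control (0.061, standard error 0.038, limma adjusted p of 0.867). Kif11, the motor that pushes the poles apart, had 0.050, Hmmr, a spindle-binding protein, 0.064, and Nusap1, a microtubule bundler, 0.029. Kif2c, which takes microtubules apart at the centromere, had -0.0097, and Ckap2, a microtubule-nucleating protein, 0.011.

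The 6 genes of the central spindle and cytokinesis had the highest median of the groups with more than 3 genes, 0.081, and 6 of 6 were higher. Racgap1, the subunit of centralspindlin that regulates RhoA (chromosome 15, bases 99620496 to 99651656), held 90.9, 85.3, 75.0 and 85.8 TPM in controls against 93.4, 93.2, 92.6 and 88.4 TPM in mutants. Control replicate 1 alone reached into the range of the mutants, and control replicate 3 lay far below the other controls. At 0.13, its log2 fold change was the largest of the 39 (standard error 0.055, limma, unadjusted p of 0.0450, adjusted p of 0.809), and 0.073 without control replicate 3. Kif20a, the motor that brings the passenger complex to the midzone, held 69.9, 66.0, 66.5 and 64.1 TPM against 72.3, 73.4, 68.9 and 75.8 TPM. Only control replicate 1 and mutant replicate 3 overlapped (0.12, standard error 0.041, unadjusted p of 0.0150, adjusted p of 0.780). Its value without control replicate 3 was also 0.12. On the opposite strand Kif20a is overlapped by Brd8 at 40.0 TPM and by Cdc23 at 59.2 TPM, so strand matters for reads in the shared stretches here as well.

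Kif4, a chromosome-bound motor of the midzone (chromosome X, bases 100626065 to 100727271), held 35.0, 33.9, 32.4 and 33.0 TPM against 34.5, 37.7, 35.2 and 35.2 TPM. The lowest mutant fell among the controls and the rest lay above them (0.085, standard error 0.043, limma adjusted p of 0.841). Kif23, the motor subunit of centralspindlin and the partner of Racgap1, had 0.066, and Kif20b 0.078. Prc1, which bundles midzone microtubules and was the most abundant of the group, overlapped fully, at 99.3, 91.3, 92.3 and 97.4 TPM against 95.9, 98.2, 95.5 and 93.6 TPM. Its log2 fold change was 0.012 (95% interval -0.070 to 0.094).

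The mitotic chromosome genes were each higher, with 0 past the threshold. Top2a (chromosome 11, bases 98992947 to 99024199) held 203, 188, 181 and 192 TPM among controls and 195, 199, 199 and 201 TPM among mutants. Control replicate 1 was above and the other 3 were below all mutants (0.056, standard error 0.038, limma adjusted p of 0.890). The value was 0.030 without control replicate 3 and 0.086 without control replicate 1. Mki67, the surface protein of mitotic chromosomes known as the Ki-67 marker, held 124, 123, 115 and 125 TPM against 123, 125, 126 and 122 TPM. Its log2 fold change of 0.028 had a 95% interval from -0.049 to 0.11 and was 0.0013 without control replicate 3. Cdca2, which recruits a phosphatase to chromosomes at mitotic exit, had 0.069 and was lowest in control replicate 3, at 20.5 TPM.

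Other genes of the pathway were counted in the same 8 libraries, from lists chosen by function with earlier results of these data known. Of 96 other mitosis genes 0 passed the threshold, 77 were higher and 19 lower, and the median was 0.040. The share higher was 80.2%, against 48.2% of all tested genes. At an unadjusted limma p below 0.05 there were 5 higher and 0 lower, against 2.65% and 3.45% of all tested genes. Every mutant lay above every control in 4 of the 96 and below in 0, against 1.63% and 2.05% of all tested genes. The summed TPM followed the same libraries: 4754, 4513, 4426 and 4603 TPM in control replicates 1 to 4 and between 4676 and 4717 TPM in the mutants. Without control replicate 3 the median was 0.020, with 64 of 96 higher. Condensin and cohesin genes had 15 of 16 higher, with a median of 0.048. Rad21, the cohesin subunit cut at anaphase, stood at 164 ± 6.20 TPM and 174 ± 2.66 TPM (SD, n = 4 each). Its log2 fold change of 0.088 did not pass (limma, adjusted p of 0.809), nor did that of the condensin subunit Ncaph, at 0.11 (adjusted p of 0.809).

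Kinetochore and checkpoint genes had 20 of 25 higher, led by Cenpk at 0.19 (limma, adjusted p of 0.780) and Trip13 at 0.11. Spindle and cytokinesis genes had 19 of 22 higher, and Kif2a had the smallest p of these, at 29.8 ± 0.815 TPM against 32.0 ± 1.25 TPM (SD, n = 4 each). G2/M regulators had 14 of 16 higher, with Melk at 0.096. Genes of the anaphase-promoting complex and its regulators were the exception in count, with 9 of 17 higher and a median of 0.0033. Fbxo5, an inhibitor of that complex, had the smallest p among them, at 0.089 (limma, adjusted p of 0.843).

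For G1/S and DNA replication, 29 of 38 genes were higher and 9 lower, with a median of 0.025 and 0 past the threshold. The share higher was 76.3%, against 48.2% of all tested genes. Their summed TPM was 2409, 2265, 2253 and 2277 TPM for controls and 2402, 2344, 2301 and 2354 TPM for mutants. Control replicate 1 was again the highest control, and the other 3 controls lay close together. Without control replicate 1 the median was 0.051 and without mutant replicate 1 it was 0.015. Fen1 and Tyms, which act in DNA replication and thymidylate synthesis, had the smallest p, at 0.11 and 0.13 (limma, adjusted p of 0.823 and 0.832). The difference between this list and the mitosis list was not tested.

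Shared sequence or overlap concerned part of the 39 genes. A second copy of Kif11 and of Nek2 on patch sequences of the assembly was listed at 0 in every library, and the rows on the main chromosomes were used. Other listed features overlap 13 genes, and in 6 of them, Ccna2, Aurka, Cdc20, Kif20a, Nusap1 and Prc1, the overlapping gene lies on the opposite strand and averages more than 5 TPM. Ccnb1-ps, a pseudogene of cyclin B1 on chromosome 7, held 4.86, 4.71, 5.08 and 4.98 TPM in the controls and 5.36, 4.78, 4.59 and 4.14 TPM in the mutants, and how reads shared with Ccnb1 were assigned is not given in the sources used here. Ccnb2-ps and Kif4-ps were listed at 0.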

How the data were processed

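RNA from ventricular heart of mouse embryos was sequenced in 4 control and 4 Atf4 frameshift libraries. Groups and replicate numbers come from the sample titles, and each table column was matched to its sample by library name. The values are TPM as deposited by the authors. Per the submitters' processing notes, Trim Galore 0.6.7, HISAT2 2.2.1, StringTie 2.2.1 and featureCounts were used with GRCm38, with no roles given. Annotation and strand setting are not given in the sources used here, and the label texts disagree on poly(A) selection or ribosomal RNA depletion. RefSeq on GRCm38.p6 holds 49593 of the 52778 features under the same symbol and chromosome, 49590 of them with the same start and end. TPM keeps no depth, so no counting interval is given.

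The 15545 genes that reached 1 TPM in 4 or more of the 8 libraries entered the fit as log2(TPM + 1), with no other scaling. Limma 3.58.1 (R 4.3.3) was fitted with a variance trend and without covariates. Its p-values are two-sided and were adjusted over all genes by Benjamini-Hochberg, with a threshold of 0.05. Fold changes on this scale understate those of low genes. The fit was tested on simulated data. Sums and medians over the genes carry no test. Python 3.11.15, pandas 2.3.3, numpy 2.4.6 and matplotlib 3.10.9 did the rest. The members and lists were chosen with earlier results of these data known. The 39 genes are all named, with values in every library for the most abundant gene and the one with the smallest p in each role and for the 6 with the smallest p of all. In each other list up to 3 with the smallest p could be named, and Incenp was added after its value was seen. Values in every library of Cdk1, Nek2 and Mki67 were added after they were seen. Alternatives changed the filter (none, or 5 TPM), the pseudocount (0.1), the scaling (quantile, median-of-ratios, or TPM recomputed without haemoglobin and mitochondrially encoded genes) and the model (weights per library, a constant variance, the replicate block), or left out each library. Protein-coding genes alone were added after the data were seen.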

Additional observations from a re-analysis of the deposited data

Results flagged for a closer look

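A library lay apart from the other 3 of its group, with a gap to its neighbour close to the whole range of the 4 values, in 4 of 82 groups examined over the 39 genes and their 2 summaries. At the 5% rate of this rule 4.1 would be flagged by chance. Each was a mutant library. Mutant replicate 4 was low for Racgap1, with 88.4 TPM where the rest held 92.6 to 93.4 TPM. Mutant replicate 1 was low for Ube2c, with 238 TPM beside 245 to 246 TPM, and for Cenpe, with 31.5 TPM beside 33.0 to 33.1 TPM. In mutant replicate 2 Bub1b was the highest, with 78.3 TPM where the rest held 76.6 to 76.9 TPM.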

How the results depend on the processing

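Under all 18 alternatives 0 of 39 genes passed, with adjusted p of at least 0.613. The median log2 fold change stayed between 0.045 and 0.059 with all libraries kept and between 0.032 and 0.076 with 1 left out, and 32 to 37 genes were higher. The summed difference was 85.4 TPM with quantile normalization, 108 TPM with median-of-ratios scaling, and from 60.2 to 147 TPM with 1 library left out. The 6 calls over all genes fell to 0 with no filter, 0 with no variance trend and 0 with the replicate block, and to between 0 and 3 with 1 library left out. Same-numbered libraries did not deviate together (correlations -0.038, 0.035, -0.037 and -0.082 over 15545 genes), so the numbers were not taken as pairs, and the block left 36 of 39 genes higher at a median of 0.051.

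The sign was kept under every alternative in 33 of 39 genes. It changed for Cenpa with quantile normalization (-0.0087) and rescaling (-0.0017), and for Cdc25c with weights per library (-0.0027). With 1 library left out, values ran from -0.032 to 0.026 for Cenpa, -0.042 to 0.087 for Cdc25c, -0.010 to 0.069 for Cdca3, -0.015 to 0.037 for Ckap2, -0.0070 to 0.033 for Prc1 and -0.046 to 0.023 for Kif2c. The cause was not tested. Atf4 kept a fold change of 0.51 to 0.62 but lost its call with no filter (adjusted p of 0.354 in limma), quantile normalization (0.0611), rescaling (0.0585), no variance trend (0.215) and the replicate block (0.249). With 1 library left out its adjusted p ran from 0.0464, without mutant replicate 4, to 0.184, and was above 0.05 for the other 7. Read depth is unknown.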

Other observations

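Genes that restrain the cell cycle showed no shared direction. Of 14 listed, 12 were expressed enough to be tested, 6 higher and 6 lower in the mutants, with a median log2 fold change of 0.0072 and 0 past the threshold. Ccng1, a cyclin-like target of p53, had the smallest p of every gene in the lists of cell cycle genes, at 124 ± 4.24 TPM for controls against 135 ± 2.50 TPM for mutants (SD, n = 4 each), and the groups did not overlap. Its log2 fold change was 0.12 (limma, unadjusted p of 0.00516, adjusted p of 0.720). Rbl1, the pocket protein p107, was at 0.11 (limma, adjusted p of 0.809). Btg1, an antiproliferative gene, was at -0.13 (limma, adjusted p of 0.809).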
